A study of Mus musculus with 8 samples.

Results

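Cytosolic ribosomal proteins are the protein parts of the ribosome that translates nuclear-encoded messages. Their genes were followed here in mouse liver RNA after delivery of a hairpin against Dnajb9 or against Rictor. The genes were chosen by name alone. They carry a symbol that starts with Rpl or Rps and a digit, or are Rpsa, Rplp0, Rplp1 or Rplp2. Kinases, pseudogenes and binding proteins were left out by their symbols alone, which kept Rps4l, annotated as a transcribed processed pseudogene. This gave 86 of 24062 gene entries, 52 of the large subunit and 34 of the small subunit. Of these, 79 had enough counts to be tested, 47 of the large and 32 of the small subunit.

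The liver RNA came from C57BL/6 mice and was depleted of ribosomal RNA and gave 8 sequenced libraries, with 4 groups of 2. The groups were shDnajb9 (Dnajb9 knockdown, age 3 months), lacZ1 (its wild-type control, age 3 months), shRictor (Rictor knockdown, age 4 months) and lacZ2 (its wild-type control, age 4 months). Every mouse got 0.1 OD of adenovirus 1 week before the liver was taken, and went without food for the last 6 h. The labels do not give the cells that the virus reached, what the lacZ virus expressed, or whether each library is a different animal. The p-values therefore describe only the spread among these libraries. Dnajb9 encodes a co-chaperone of the endoplasmic reticulum, and Rictor a subunit of the kinase complex mTORC2. The series title ties the study to nutrient sensing and energy metabolism by that complex.

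A cytosolic ribosome holds a small subunit, which reads the messenger RNA, and a large subunit, which joins amino acids. The genes for its proteins are among the most highly expressed in liver, a tissue that secretes much of the plasma protein. Their messenger RNAs belong to the TOP class, which starts with a C followed by a tract of pyrimidines (C or T). Through this 5′ terminal oligopyrimidine tract, the related complex mTORC1 and the RNA-binding protein LARP1 control their translation, and LARP1 also stabilises them. Most of these genes also have many processed pseudogenes, copies of the spliced message scattered over the genome.

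Some of these genes carry a pyrimidine run near an annotated start, as in the tract that gives the class its name. The run counted here did not have to open with a C. RefSeq promoters on build GRCm38.p6 were found for 65 of the 86 genes. A run of 8 or more pyrimidines on the sense strand, reaching within 5 bases of the annotated start, was the longest run in the 30-base window of 23 of these 65 genes, or 35.4%. In the same window, 11.2% of 27025 genes with a promoter held such a run. The sequences below span 15 bases on either side of the start for Rps6, the classical S6 kinase substrate, and for 7 genes called higher in shDnajb9, the first 6 with the run and the last 2 without it. Of the called genes with a promoter, 5 had the run, all shown, and 6 did not, of which 2 are shown. Capitals mark the longest pyrimidine run in each window.
Rps6 (chr4:86857353-86857382, minus strand): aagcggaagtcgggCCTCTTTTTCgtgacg
Rpl27a (chr7:109519180-109519209, plus strand): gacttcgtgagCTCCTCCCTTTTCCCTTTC
Rpl35a (chr16:33056467-33056496, plus strand): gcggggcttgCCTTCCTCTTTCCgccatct
Rpl38 (chr11:114668565-114668594, plus strand): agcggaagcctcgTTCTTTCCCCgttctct
Rplp2 (chr7:141447636-141447665, plus strand): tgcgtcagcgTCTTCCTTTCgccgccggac
Rps18 (chr17:33955651-33955680, minus strand): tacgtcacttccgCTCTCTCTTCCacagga
Rps2 (chr17:24720048-24720077, plus strand): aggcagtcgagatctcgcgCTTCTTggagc
Rps3 (chr7:99483695-99483724, minus strand): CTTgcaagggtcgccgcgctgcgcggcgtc
An annotated start can lie some bases away from the start used in liver, so a window without the run is only that. Rpl35a has 3 annotated starts, of which the one with the run is shown.

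Counts assigned to genes ranged from 6426164 to 11383532 per library. Reads without a unique alignment, which the counting set aside, made up 41.3% and 42.0% of all counts in shDnajb9 against 22.9% and 24.9% in lacZ1, and 32.7% and 26.7% in shRictor against 24.6% and 24.2% in lacZ2. The shDnajb9 replicate 1 and lacZ2 replicate 1 libraries stood apart in earlier results of these data. Dnajb9 stood at 21.99 and 20.3 CPM (counts relative to the scaled library total) in shDnajb9 against 30.6 and 38.0 CPM in lacZ1 and was not called (adjusted p = 0.056, edgeR). Rictor stood at 40.1 and 41.9 CPM in shRictor against 52.3 and 65.1 CPM in lacZ2 and was not called either (log2 fold change -0.52, adjusted p = 0.231, edgeR). In shDnajb9, Rictor stood at 33.3 and 63.3 CPM against 65.4 and 68.7 CPM in lacZ1, also not called (-0.46, adjusted p = 0.239, edgeR). The hairpin names below therefore give what was delivered.

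The unique-alignment rule bears on this family, because 71 of the 86 genes shared 20% or more of their 50-base stretches with a gene at another place, in most cases including a pseudogene. The median share was 42.1%. Genes over the 20% limit are uncertain, since their reads could be lost or placed on a copy. Levels per length, in mean CPM per kb of exon over the 8 libraries, were highest for Rpl41 at 1750, Rps14 at 1634, Rplp1 at 1394, Rps2 at 1371 and Rps15 at 869. Rpl41 encodes the smallest protein of the ribosome, and all 5 are uncertain. The median tested ribosomal protein gene stood at 282 CPM per kb, against 7.33 CPM per kb for the median tested protein-coding gene.

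At the other end were genes that were hardly counted. Rpl26, a large subunit protein with 71.3% shared sequence, had 0 counts among 71485781 gene counts, where a count of 0 allows up to 3. Rpl30 had 10 counts in all 8 libraries and Rps27 had 30, with 25.4% and 54.2% shared sequence. Rpl34 at 1.59 and Rpl39 at 7.08 CPM per kb were also far below the median of the tested genes, with 33.3% and 16.5% shared sequence. Whether their reads were lost to the unassigned classes was not tested. Rpl10l and Rps27rt were at 0 in every library, Rpl39l had 2 counts and Rpl3l, a form of heart and skeletal muscle, had 23. Across the 86 genes, level per kb and shared sequence had a Spearman rho of 0.39 and, on log2(value + 1), a Pearson r of 0.34, as a description of genes that share the same libraries.

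**Figure D1:**
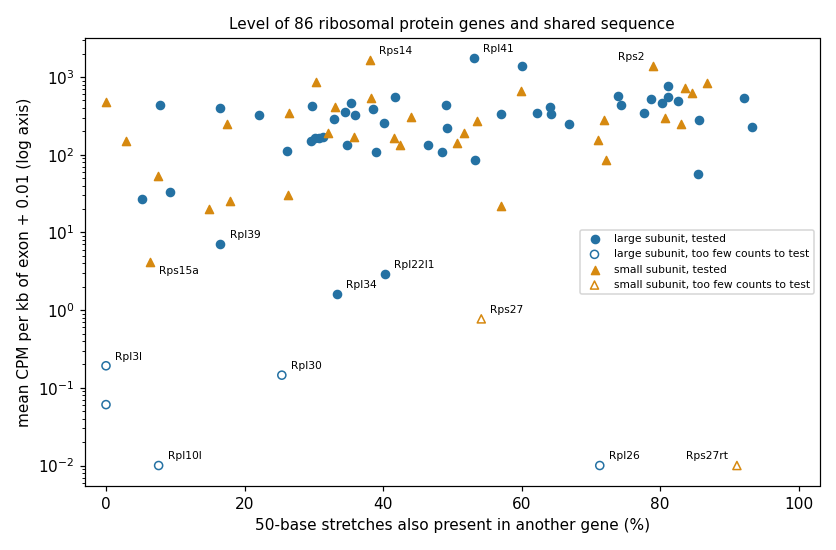
Mean level in CPM per kb of exon over 8 libraries (log axis, 0.01 added) against the percent of 50-base stretches found in another gene, for 86 ribosomal protein genes. Filled symbols are the 79 tested genes, open symbols the 7 with too few counts. Rpl26, Rpl30, Rps27, Rpl34 and Rpl39 lie far below most other genes, at shares from 16.5% to 71.3%.

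Ribosomal protein genes were mostly higher in shDnajb9 than in lacZ1, as a broad shift of modest size. Of 79 tested genes 73, or 92.4%, had a log2 fold change above 0, against 47.9% of all 13767 tested genes. Their median log2 fold change was 0.63, against -0.05 for all tested genes, with values from -0.41 to 1.32. The 79 genes share the same libraries, so their signs are not separate replicates. Between the control groups, lacZ2 over lacZ1, 63 of the 79 (79.7%) were also above 0, against 47.2% of all tested genes. In 61 of the 79 genes both shDnajb9 libraries lay above both lacZ1 libraries, and in 2 (Rps19 and Rpl34) both lay below, against 32.4% and 35.1% of all tested genes. At an adjusted p under 0.05, 13 genes rose and 0 fell (edgeR, Benjamini-Hochberg over all tested genes), with 33 above and 0 below at an unadjusted p under 0.05. The share of all tested genes under that unadjusted limit is not given, here or below. The 13 are 16.5% of the family, beside 11.6% of all tested genes called higher and 12.6% lower (24.2% either way), so the share of edgeR calls was near the background. DESeq2 called 26 higher (32.9%) and 0 lower, beside 12.8% and 11.8% of all tested genes. Limma-voom called 11 higher (13.9%) and 0 lower, beside 11.1% and 11.8%. In bulk tissue, fewer cells of a type and less RNA per cell cannot be told apart.

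The calls rested on single libraries and on the scaling, while the median stayed above 0 in the subsets and the total count scaling given here. Of the 79 genes, 62 were highest of all 8 libraries in shDnajb9 replicate 1, and 37 were lowest in lacZ1 replicate 1. The 13 calls became 0 without shDnajb9 replicate 1, where 4.21% of all tested genes were called higher and 74 of 79 members were still above 0, with a median of 0.41. They became 0 without lacZ1 replicate 1, beside 2.25% of all tested genes, with 67 of 79 above 0 and a median of 0.48. Without lacZ1 replicate 2 they became 3, or 3.80% of the family, beside 5.64% of all tested genes. Without shDnajb9 replicate 2 they became 28, or 35.4%, beside 14.8% of all tested genes. Calls over all genes thus also fell in 3 of these 4 subsets. Without both libraries that stood apart, 0 members were called, beside 5.38% of all tested genes, and the median was 0.40. With total count in place of the TMM scaling, the median of all genes moved from -0.05 to -0.46 and that of the family from 0.63 to 0.19, so 0 members were called (4 at an unadjusted p under 0.05), beside 4.43% of all tested genes higher and 24.3% lower. The family still lay 0.65 above the median of all genes with total count, and 0.68 with TMM. As a share of all gene counts, the 86 genes took 2.74% and 2.30% in shDnajb9 against 1.92% and 2.27% in lacZ1. As a share of all reads, the unassigned ones included, they took 1.05% and 0.835% in shDnajb9 against 0.950% and 1.13% in lacZ1. The groups overlap on that second measure.

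**Figure D2:**
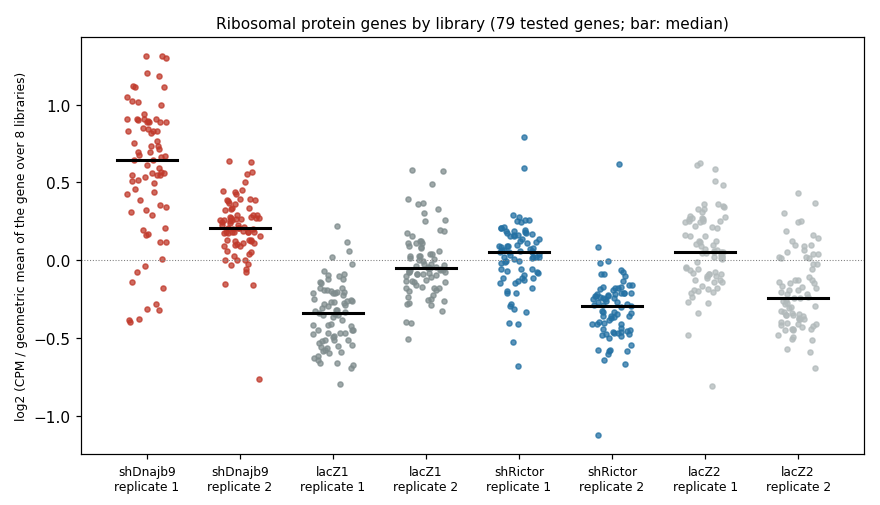
Each point is 1 of 79 tested ribosomal protein genes, as log2 of its CPM in a library over its geometric mean in all 8 libraries, and bars are medians. The median is 0.65 and 0.21 in shDnajb9, against -0.34 and -0.05 in lacZ1, and 0.06 and -0.30 in shRictor, against 0.05 and -0.24 in lacZ2.

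Of the 6 small subunit genes that rose in shDnajb9, Rps2 had the largest change. Rps2, a protein of the entrance where the messenger RNA is threaded (plus strand of chromosome 17, 24718116 to 24721929), measured 3087 and 1521 CPM in shDnajb9, against 805 and 1035 CPM in lacZ1. It rose 2.50-fold, a log2 fold change of 1.32 with an SE of 0.429 (adjusted p = 0.0403, edgeR). The groups did not overlap, and 79.03% of its sequence is shared. Rps3, its neighbour at the entrance, which also has a role in DNA repair (minus strand of chromosome 7, 99477896 to 99483738), measured 647 and 317 CPM in shDnajb9, against 172 and 249 CPM in lacZ1. Rps3 rose 2.29-fold (1.19, SE 0.387, adjusted p = 0.0406) and has little shared sequence, at 2.96%. In both genes shDnajb9 replicate 1 lay well above replicate 2. Rps18, a protein of the head of the subunit, stood at 890 and 586 CPM in shDnajb9, against 318 and 405 CPM in lacZ1, and rose by 1.03. Rps25, which some viral messages need to recruit ribosomes, stood at 69.3 and 48.1 CPM in shDnajb9, against 22.9 and 34.8 CPM in lacZ1, and also rose by 1.03. Rps21 rose by 1.01 and Rps27a, which is made as a fusion to ubiquitin, by 0.76, where Rps27a stood at 24.1 and 22.1 CPM in shDnajb9, against 13.1 and 14.2 CPM in lacZ1. The shDnajb9 libraries of Rps27a lay close together, unlike those of Rps2 and Rps3.

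Among the 7 large subunit genes that rose, Rpl35a had the smallest adjusted p of the family. Rpl35a, which is mutated in some human cases of Diamond-Blackfan anaemia (plus strand of chromosome 16, 33056453 to 33060189), measured 121 and 82.1 CPM in shDnajb9, against 40.2 and 53.0 CPM in lacZ1. It rose 2.18-fold (1.12, SE 0.276, adjusted p = 0.0125). Rpl36 had 599 and 360 CPM in shDnajb9, against 173 and 234 CPM in lacZ1, and rose 2.36-fold (1.24, SE 0.342, adjusted p = 0.0212), with 81.1% of its sequence shared. Rpl22, an RNA-binding protein needed for T cell development in the mouse, had 86.9 and 71.1 CPM in shDnajb9, against 35.9 and 51.2 CPM in lacZ1. It rose by 0.86 (SE 0.243, adjusted p = 0.0232), and 5.19% of its sequence is shared. Rpl27a rose by 1.02, and Rpl38, whose loss shortens the tail of mice, by 0.99. Rpl38 stood at 127 and 90.9 CPM in shDnajb9, against 52.0 and 57.5 CPM in lacZ1, with no overlap. All 13 lost the call without shDnajb9 replicate 1, without lacZ1 replicate 1 and with total count only.

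**Figure D3:**
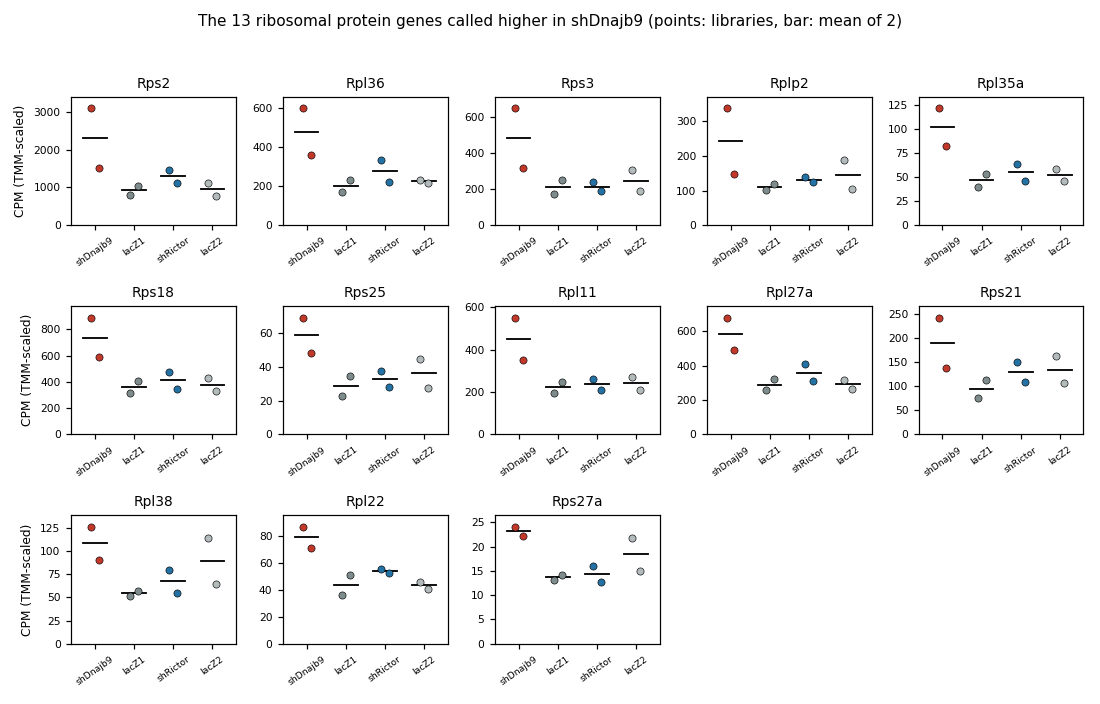
CPM per library (points) and group mean (bars) of the 13 ribosomal protein genes called higher in shDnajb9 than in lacZ1, each on its own axis from 0. Both shDnajb9 libraries lie above both lacZ1 libraries in each panel, and replicate 1, drawn on the left in each pair, is the higher shDnajb9 library in all 13.

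The stalk proteins recruit the translation factors to the large subunit. Rplp2 stood at 336 and 149 CPM in shDnajb9, against 102 and 120 CPM in lacZ1, and rose by 1.13 (SE 0.381, adjusted p = 0.0481). Rplp1, at 1217 and 761 CPM in shDnajb9 against 416 and 553 CPM in lacZ1, had a similar value of 1.03 but was not called (adjusted p = 0.0732). Rplp0, the base of the stalk, was at 0.63 (adjusted p = 0.182) and Rpsa, a small subunit protein also known as a laminin receptor, at 0.79 (adjusted p = 0.137). In these 4 genes both shDnajb9 libraries lay above both lacZ1 libraries, as in 61 of the 79 tested members and 32.4% of all tested genes.

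Rps6, the protein that S6 kinases phosphorylate downstream of mTORC1, stood at 870 and 609 CPM in shDnajb9, against 405 and 518 CPM in lacZ1, and was not called (0.68, SE 0.333, adjusted p = 0.146). Rpl5 and Rpl11 together with the 5S ribosomal RNA bind Mdm2, the ligase that keeps p53 low. Rpl11 stood at 550 and 351 CPM in shDnajb9, against 196 and 247 CPM in lacZ1, and rose by 1.02 (SE 0.322, adjusted p = 0.0356). Rpl5 overlapped between the groups, with 248 and 283 CPM in shDnajb9 and 192 and 285 CPM in lacZ1 (0.16, adjusted p = 0.72). A difference between Rpl11 and Rpl5 was not tested. Mdm2 itself fell to 50.5 and 53.2 CPM in shDnajb9, against 122 and 115 CPM in lacZ1 (-1.19, adjusted p = 0.00295).

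Genes named as second forms of a ribosomal protein were set beside their usual partners. Rps27l, a target of p53 in human cells, stood at 287 and 145 CPM in shDnajb9, against 85.1 and 122 CPM in lacZ1, with a log2 fold change of 1.06 that was not called (adjusted p = 0.0634). Its partner Rps27 was not measured well enough to compare. Rpl22l1, which can stand in for Rpl22, had 1.47 and 2.28 CPM in shDnajb9 and 1.77 and 2.14 CPM in lacZ1, with a standard error of 0.54 about a log2 fold change near 0. Rpl7l1 was at 0.49 (adjusted p = 0.16) against -0.16 for Rpl7, and Rpl36al at 0.05 against 0.83 for Rpl36a, an X-linked gene for a closely related protein. None of these 4 was called by edgeR. Rps4l, annotated as a transcribed processed pseudogene, had 42.3 and 10.04 CPM in shDnajb9, against 10.8 and 19.5 CPM in lacZ1. Its 0.76 rested on shDnajb9 replicate 1 and was -0.58 without it, whereas its partner Rps4x was at -0.09. Rpl3, at 0.17, and Rpl10, at 0.73, were not called, and their partners Rpl3l and Rpl10l had too few counts to test. Rpl39, a short protein of the exit tunnel, was at 0.77 with 7.12 and 6.27 CPM in shDnajb9, against 3.54 and 4.29 CPM in lacZ1 (adjusted p = 0.115).

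The highest levels per length belonged to genes that were not all called. Rps14 had 2035 and 1133 CPM in shDnajb9, against 599 and 769 CPM in lacZ1 (1.21, SE 0.426, adjusted p = 0.0547). Rps15 had 833 and 608 CPM in shDnajb9, against 426 and 472 CPM in lacZ1 (0.68, adjusted p = 0.14). Both genes were apart between the groups, whereas Rpl41 overlapped, with 1286 and 649 CPM in shDnajb9 and 521 and 695 CPM in lacZ1 (0.67, adjusted p = 0.275).

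With libraries scaled so that the median ratio over the family was 1, edgeR called 0 of the 79 genes higher or lower in shDnajb9, beside 1.98% and 23.2% of all tested genes, and 0 in shRictor, beside 2.62% and 5.12%. At an unadjusted p under 0.05, Rps15a and Rps19 were lower in shDnajb9 and Rpl34 was higher in shRictor. The standard deviation of the log2 fold changes over the 79 genes was 0.39, beside a median standard error of 0.32. Large subunit genes had a median of 0.61 and small subunit genes of 0.72. The 12 tested genes with under 20% shared sequence had a median of 0.76 and 2 calls, and the 67 others a median of 0.61 and 11 calls. By level, the upper 40 genes had a median of 0.75 and the lower 39 of 0.51. The 22 tested genes with the pyrimidine run printed for 6 of them above had a median of 0.81 and 5 calls, and the 37 tested genes without it a median of 0.52 and 6 calls. No test was made between these subsets. Across the 79 genes the log2 fold change had a Spearman rho of 0.28 with GC content of the transcript, -0.10 with its length and -0.12 with shared sequence. After a correction for length and GC content, the median was 0.32, beside 0.08 for all tested genes, so the family lay 0.24 above them, against 0.68 without it. The correction left 8 members called higher, or 10.1%, beside 18% of all tested genes.

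Ribosomal proteins outside the name rule gave values in the same range. Fau, which encodes a ribosomal protein fused to a ubiquitin-like protein, stood at 629 and 320 CPM in shDnajb9, against 188 and 237 CPM in lacZ1, and rose by 1.16 (adjusted p = 0.0295). Gnb2l1, the scaffold RACK1 of the small subunit, was at 0.69 (adjusted p = 0.162). For both genes the shDnajb9 libraries lay above the lacZ1 libraries, as for 32.4% of all tested genes.

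In shRictor against lacZ2, no ribosomal protein gene was called, and most log2 fold changes were slightly below 0. Of the 79 tested genes 23 had a log2 fold change above 0, against 48.8% of all tested genes, and the median was -0.12, beside -0.02 for all. None was called in either direction by edgeR, DESeq2 or limma-voom. Of all tested genes, edgeR called 7.31% higher and 10.9% lower (18.2% either way), DESeq2 8.28% and 9.46%, and limma-voom 7.67% and 10.5%. At an unadjusted p under 0.05, edgeR gave 2 genes, Rpl34 above and Rps19 below, with no share of all tested genes to set beside them. Both libraries of shRictor lay above both of lacZ2 in 6 genes and below them in 12, against 28.8% and 31.6% of all tested genes. The sign of the median rested on single libraries, since it was 0.14 without lacZ2 replicate 1 and 0.08 without shRictor replicate 2. With total count only, where the median of all genes was -0.42, the family was at -0.53 and 4 genes were called lower, Rps12, Rps19, Rps20 and Rps29, beside 3.17% of all tested genes higher and 20.4% lower.

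Rps19, the gene most often mutated in human Diamond-Blackfan anaemia, was the clearest low value in shRictor. It stood at 117 and 113 CPM in shRictor, against 158 and 200 CPM in lacZ2 (-0.65, SE 0.263, adjusted p = 0.11), and at 169 and 195 CPM in shDnajb9, against 196 and 235 CPM in lacZ1 (-0.24, adjusted p = 0.515). In both experiments the hairpin libraries lay below their lacZ libraries, as for 35.1% of all tested genes in shDnajb9 and 31.6% in shRictor. The nearest libraries of shDnajb9 and lacZ1 were almost level, at 195 and 196 CPM. Rpl34 stood at 1.76 and 1.56 CPM in shRictor, against 0.581 and 0.676 CPM in lacZ2 (1.37, SE 0.506, adjusted p = 0.0794), on 79 counts in all 8 libraries. It was called after a correction for transcript length and GC content, and not with the replicate block added to that correction. Rps2, with the largest rise in shDnajb9, had 1471 and 1130 CPM in shRictor, against 1130 and 769 CPM in lacZ2 (0.45, adjusted p = 0.507). The lower shRictor library and the higher lacZ2 library had nearly the same level. Rpl22 stood at 55.4 and 52.8 CPM in shRictor, against 45.9 and 40.8 CPM in lacZ2, apart but not called (0.32, adjusted p = 0.402). Rpl5 stood at 182 and 171 CPM in shRictor, against 193 and 244 CPM in lacZ2 (-0.31, adjusted p = 0.51). Rpl39 had 3.29 and 1.86 CPM in shRictor, against 4.42 and 3.89 CPM in lacZ2 (-0.70, adjusted p = 0.206).

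The stalk genes Rplp1 and Rplp2 and the signalling gene Rps6 overlapped between shRictor and lacZ2. Both Rpl5 libraries of shRictor, given above, lay below both of lacZ2. Rplp1 had 759 and 568 CPM in shRictor and 827 and 463 CPM in lacZ2, and Rplp2 had 140 and 123 CPM in shRictor and 187 and 104 CPM in lacZ2. Rps6 had 602 and 464 CPM in shRictor and 471 and 471 CPM in lacZ2 (0.18, adjusted p = 0.76). For Rplp1 and Rplp2 the lacZ2 libraries bracketed both shRictor libraries. Rps27l had 134 and 87.3 CPM in shRictor and 185 and 102.7 CPM in lacZ2 (-0.38, adjusted p = 0.544). The 86 genes took 2.11% and 1.61% of gene counts in shRictor against 2.98% and 2.05% in lacZ2, with overlap. Of all reads, they took 0.838% and 0.786% in shRictor against 1.26% and 1.06% in lacZ2, so the groups did not overlap and shRictor was lower on that measure.

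**Figure D4:**
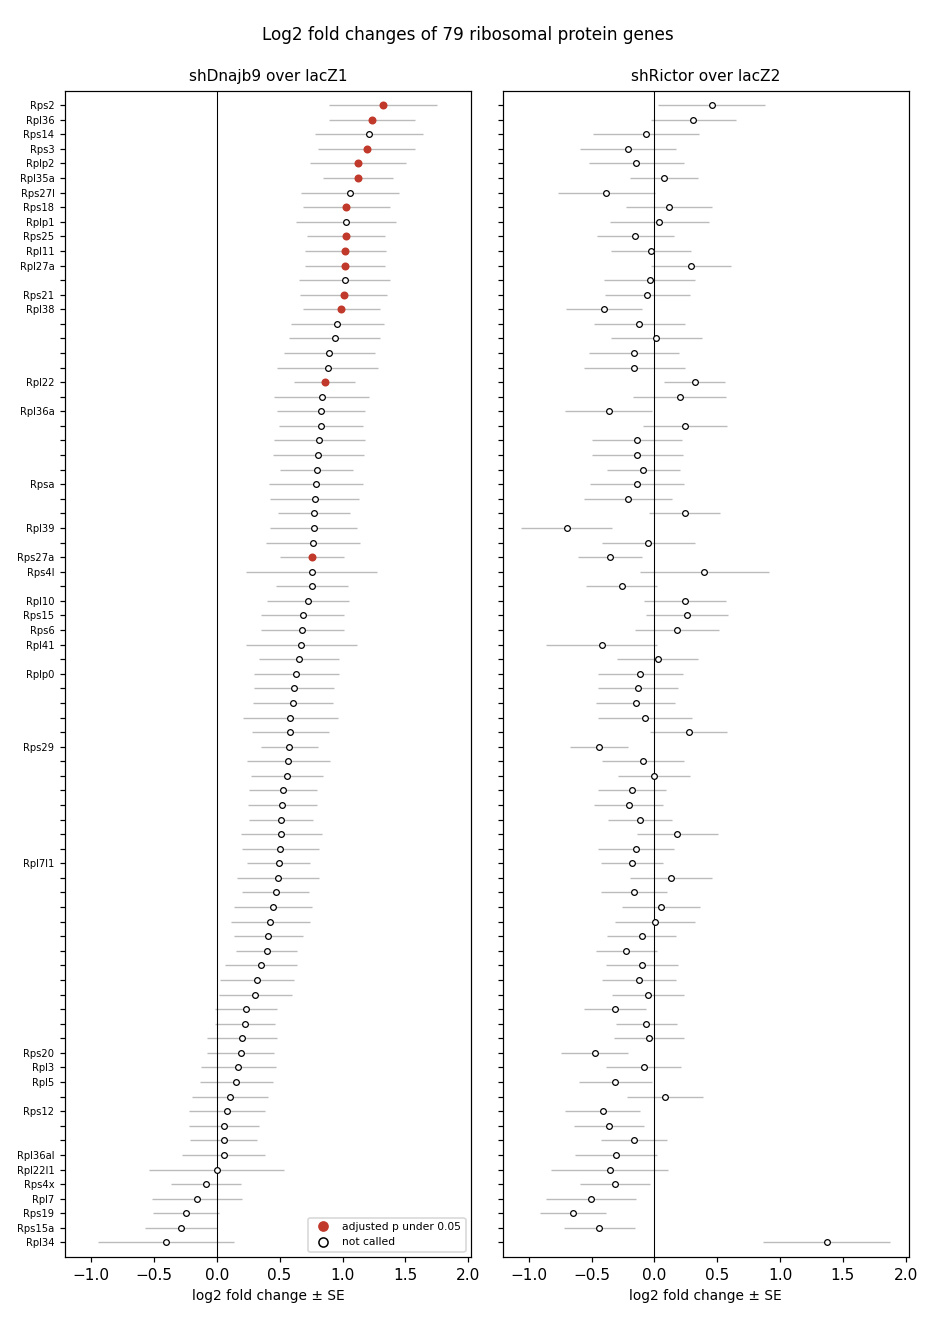
Log2 fold change with its standard error for each of 79 ribosomal protein genes, in shDnajb9 over lacZ1 (left) and shRictor over lacZ2 (right), ordered by the left panel, with names given for some of the genes described in the text. Most points lie right of 0 on the left, with 13 filled as called, while points on the right scatter about a median of -0.12 and 0 are called.

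The difference between the hairpin effects was tested directly and was not called for any member. The Rictor effect minus the Dnajb9 effect had a median of -0.66 over the family, beside -0.01 for all tested genes. Of the 79 values 78 were below 0, where 49.1% of all tested genes were above 0. The 79 genes share the same libraries, and their median was -0.31 without both libraries that stood apart. No member passed in edgeR, DESeq2 or limma-voom, where edgeR called 0.00726% of all tested genes higher and 0% lower, and DESeq2 0.145% and 0.182%. At an unadjusted p under 0.05, edgeR gave 14 members below 0 and 1 above, with no share of all tested genes to set beside them. Rpl38 had the smallest adjusted p of the members (-1.39, SE 0.431, adjusted p = 0.394), and it passed without the filter on low counts. Between the control groups, which differ in age and experiment, edgeR called 0 of the 79 genes in lacZ2 against lacZ1, as for all tested genes (0%), with 1, Rpl38, at an unadjusted p under 0.05 and 0 by DESeq2 and limma-voom. The median there was 0.12, beside -0.01 for all, and 63 of the 79 genes were above 0, against 47.2% of all tested genes. Both lacZ2 libraries lay above both lacZ1 libraries in 10 genes and below them in 1, beside 11.7% and 9.97% of all tested genes.

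Related gene lists did not all follow the family in shDnajb9. Mitochondrial ribosomal protein genes, whose proteins translate the mitochondrial genome, had a median of 0.60, and 22 of 77 (28.6%) rose and 0 fell, beside 11.6% and 12.6% of all tested genes. In shRictor their median was 0.16, beside -0.02 for all tested genes, and 61 of 77 were above 0, against 48.8% of all. There edgeR called 0 of 77, beside 7.31% higher and 10.9% lower of all tested genes. Of 17 other TOP messages, mostly translation factors, the median was 0.44 in shDnajb9, where Eef1d, an exchange factor of elongation, rose by 0.90 (adjusted p = 0.0413) and Nap1l1, a histone chaperone, fell by 0.77 (adjusted p = 0.0267). Nap1l1 also fell in shRictor, by 0.93 (adjusted p = 0.0126), where the list's median was 0.06.

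Genes that build ribosomes had medians below 0, with shares of calls near or under those of all tested genes. Of 49 ribosome assembly and RNA polymerase I genes 8 (16.3%) fell and 0 rose in shDnajb9, with a median of -0.35, beside 12.6% lower and 11.6% higher of all tested genes. In shRictor 2 (4.08%) fell and 0 rose, with a median of -0.29, beside 10.9% and 7.31%. Nop56, a core protein of the particles that methylate ribosomal RNA, stood at 24.3 and 19.5 CPM in shDnajb9, against 45.8 and 53.4 CPM in lacZ1 (-1.19, adjusted p = 0.00497), and at 23.1 and 24.3 CPM in shRictor, against 37.5 and 50.1 CPM in lacZ2 (-0.89, adjusted p = 0.0221). Its partner Nop58 fell in both, by 0.86 in shDnajb9 (adjusted p = 0.0235) and by 1.15 in shRictor (adjusted p = 0.0062). Polr1a, the largest subunit of RNA polymerase I, fell by 1.64 in shDnajb9 (adjusted p = 0.0138), and Nolc1, a nucleolar phosphoprotein, by 1.08 (adjusted p = 0.0192). Neither was called in shRictor, where Polr1a was at -0.45 and Nolc1 at -0.45. Of 10 snoRNA host genes 0 were called in either comparison.

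Regulators of TOP translation and of the p53 link were mixed. Of 15, 4 (26.7%) fell and 0 rose in shDnajb9, beside 12.6% and 11.6% of all tested genes, and 1 fell and 1 rose (6.67% each) in shRictor, beside 10.9% and 7.31%. Mtor, the kinase of both mTOR complexes, stood at 41.5 and 93.1 CPM in shDnajb9, against 275 and 189 CPM in lacZ1 (-1.78, adjusted p = 0.0174), and Mlst8, a subunit of both complexes, fell by 1.54 (adjusted p = 0.00621). In shRictor, Eif4ebp2, a repressor of cap-dependent translation, rose by 1.11 (adjusted p = 0.0425) and Mdm2 fell by 0.97 (adjusted p = 0.00946). The Eif4ebp2 libraries were spread, at 37.8 and 66.0 CPM in shRictor against 32.7 and 15.6 CPM in lacZ2.

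**Figure D5:**
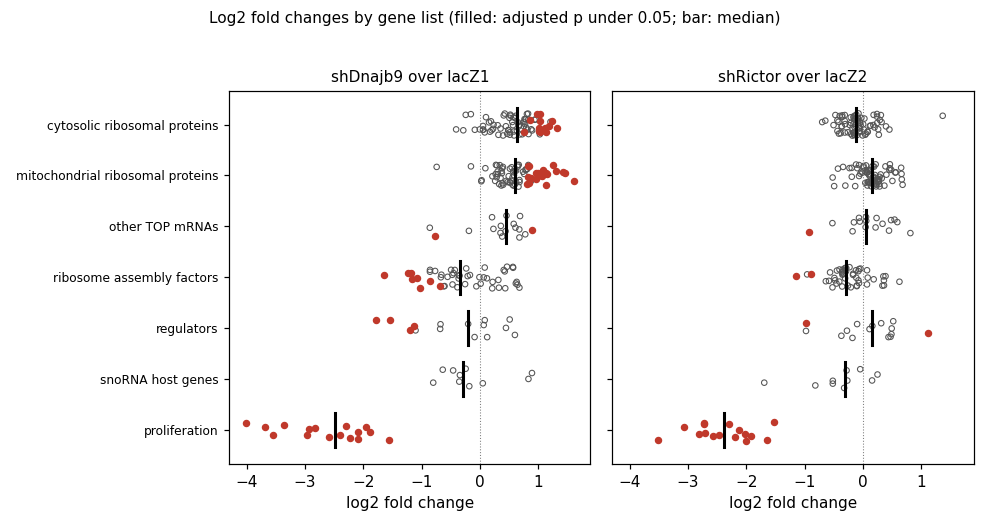
Log2 fold changes of single genes by list, for shDnajb9 over lacZ1 (left) and shRictor over lacZ2 (right), with filled points called and bars at the median. In shDnajb9 the medians are 0.63 for cytosolic and 0.60 for mitochondrial ribosomal proteins and -0.35 for assembly factors, and in shRictor -0.12, 0.16 and -0.29.

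Markers of cell types and of division moved in the same libraries, and their part in these values was not tested. Beside the counts that follow, 11.6% of all tested genes were called higher and 12.6% lower in shDnajb9, and 7.31% and 10.9% in shRictor. All 16 proliferation genes fell in both comparisons, with summed levels of 170 and 204 CPM in shDnajb9 against 1035 and 1250 CPM in lacZ1, with 142 and 213 CPM in shRictor against 793 and 936 CPM in lacZ2. Of 15 tested hepatocyte markers 8 rose in shDnajb9 and 7 in shRictor, and 0 fell. Their summed level was 112865 and 93557 CPM in shDnajb9 against 55336 and 73064 CPM in lacZ1, with 92478 and 101258 CPM in shRictor against 31289 and 60609 CPM in lacZ2, so the labelled tissue bears its defining markers in every library. In shDnajb9 and in shRictor, 5 and 2 of 9 stellate markers, 2 and 3 of 8 macrophage markers, 1 and 3 of 11 T and NK cell markers, 4 and 1 of 5 tested neutrophil markers, and 2 and 0 of 4 cholangiocyte markers fell, and none of these rose. Neutrophil markers (8 in the files) summed to 1.05 and 1.03 CPM in shDnajb9 against 25.7 and 6.31 CPM in lacZ1. In shRictor they summed to 1.76 and 4.79 CPM against 14.4 and 4.06 CPM in lacZ2. S100a8, Mpo and Retnlg were at 0 in both shDnajb9 libraries and in shRictor replicate 1. Retnlg was also at 0 in shRictor replicate 2, and S100a8 in lacZ2 replicate 2. Of 7 endothelial markers 1 rose in shDnajb9, and of 4 B cell markers 0 were called. The 6 globin entries were at 0 in every library, and of the other 2 erythroid markers 1 rose and 1 fell in each comparison, with summed levels of 594 and 261 CPM in shDnajb9 against 63.8 and 59.2 CPM in lacZ1, with 156 and 129 CPM in shRictor against 69.6 and 55.7 CPM in lacZ2.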

How the data were processed

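Livers were sequenced as ribosomal RNA-depleted total RNA, per the labels' protocols. The authors deposited raw counts per gene symbol, made with cutadapt, HTSeq and mouse build mm10, per the submitters' processing notes; the aligner, versions, annotation and strand setting are not given in the sources used here. HTSeq's 5 unassigned classes, 48.4% to 63.7% of all counts, stayed out of library sizes and tests. Counts were analysed with edgeR 4.0.16 in R 4.3.3: filterByExpr with a minimum count of 10 kept 13767 genes, libraries were scaled with TMM factors, and a design with 4 group means over 8 libraries (4 residual degrees of freedom) was tested by the quasi-likelihood F test with robust moderation, with calls at an adjusted p under 0.05. CPM values are TMM-scaled unless stated otherwise, and n is 2 libraries a group, which allows no exact permutation test under 0.05. The floor of 3 counts covers counting error only.

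Length, position and shared 50-base stretches came from GENCODE M21 (GRCm38), for exons of RefSeq-linked transcripts; sharing with genes that overlap the same locus was left out, and copies outside the annotated transcripts were not searched. The members and lists were chosen with earlier results of these data known. Named genes were the 13 called members, fixed stalk, signalling and paralogous members, the 5 highest and lowest levels, and up to 3 called genes per list; Rps19, Rps15a, Rpl34, Rps12, Rps20 and Rps29 were named after their values were seen. Results of some genes that the rule names are not reported here. Alternatives were RLE factors, total count, scaling to the family, no or a stricter filter, DESeq2 1.42.0, limma-voom (limma 3.58.1), only the libraries compared, a replicate block, length and GC correction, a 1.5-fold test, and leaving out libraries.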

Additional observations from a re-analysis of the deposited data

Results flagged for a closer look

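Reads without a unique alignment, a class outside the gene counts, were more frequent in the hairpin libraries than in their controls. The lowest share was 41.3% in shDnajb9, against a highest share of 24.9% in lacZ1, and 26.7% in shRictor, against 24.6% in lacZ2. The part of ribosomal protein reads in this class was not tested. The counts of the 7 entries named as pseudogenes of the family summed to 4 and 15 in shDnajb9 against 20 and 20 in lacZ1. They summed to 10 and 21 in shRictor against 10 and 18 in lacZ2. These raw sums come from libraries of unequal depth. As CPM on the total gene count, without TMM factors, the sums were 0.622 and 1.56 in shDnajb9 against 2.04 and 2.55 in lacZ1. On that scale they were 1.08 and 1.84 in shRictor against 1.49 and 1.72 in lacZ2, with overlap.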

How the results depend on the processing

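In shDnajb9 against lacZ1, the 13 members called higher became 0 with total count only (4.43% of all tested genes were called higher), 0 with libraries scaled to the family (1.98%), 0 against a 1.5-fold change (3.94%) and 0 without both libraries that stood apart (5.38%). They became 8 with the length and GC correction (10.1% of members, 18% of all), 8 when the replicate block was added to it (17.7% of all), 24 with no filter (28.9% of members, 10.2% of all) and 26 with DESeq2 (32.9% of members, 12.8% of all). With 1 library left out they ranged from 0 to 28, including 6 and 5 without a shRictor library (10.3% and 10.2% of all). The median of 0.63 was 0.19 with total count only, -0.010 with scaling to the family, 0.32 with the length and GC correction, 0.30 with the replicate block and that correction and 0.40 without both libraries, and it ranged from 0.41 to 0.86 with 1 library left out. With all reads as the denominator, the family's share in shDnajb9 was 0.907 times that in lacZ1, while with gene counts it was above that in lacZ1. In shRictor, total count only gave 4 lower and a median of -0.53, the length and GC correction 1 higher, and the median was 0.14 without both libraries and between -0.26 and 0.14 with 1 left out. For the difference between the hairpins, no filter gave 1 lower, and the median of -0.66 was 0.0021 with scaling to the family, -0.26 with the length and GC correction, -0.26 with the block and that correction, and -0.31 without both libraries, and it ranged from -0.86 to -0.51 with 1 left out. Scaling to the family sets its median near 0 by construction, and the 1.5-fold test asks for more than a nonzero change; the other causes were not tested.

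The replicate numbers are not known to pair the libraries: deviations of equal numbers correlated at -0.30 for shDnajb9 and lacZ1 and -0.03 for shRictor and lacZ2. A replicate block gave 10 members higher in shDnajb9 (11.3% of all tested genes), and the crossed replicate block, added after the data were seen, gave 22 (15.4%). Of 1980 values of 45 named genes under other settings, 197 lost a call, 23 gained one, and 113 changed sign without a call in either setting. With 2 libraries a group and a median standard error of 0.32, the smallest change called among the members was 1.69-fold (Rps27a).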
